A study of Homo sapiens with 32 samples.

Results

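The promoters of protein-coding genes were taken as windows of 1 kb on each side of the 5' end of every autosomal protein-coding gene of GENCODE release 44, which gave 19111 windows of 2 kb among the 1378197 tiles of 2 kb that make up the known sequence of the autosomes. Each was set against a window 10 kb upstream and a window 10 kb downstream of the same gene, for which 19105 and 19104 windows held known sequence. What was read in them was the share of bases lying inside uracil-enriched regions, the stretches of genome where DNA pulled down with a catalytically inactive uracil-DNA glycosylase (the FLAG-tagged ΔUNG sensor) exceeded the input DNA. Regions were available for 15 libraries.

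Of these, 14 came from HCT116, a colon carcinoma line that lacks mismatch repair (MMR), with 2 replicates for each of 7 conditions, and 1 came from K562, a chronic myelogenous leukemia line. WT was unmodified HCT116. NT_UGI was the same line stably expressing UGI, a protein inhibitor of UNG, the main uracil-DNA glycosylase, together with EGFP after retroviral transduction and cell sorting. NT_UGI_MMR expressed UGI in the MMR proficient derivative of the line, which carries an added chromosome 3. 5FdUR_UGI and 5FdUR_UGI_MMR were these UGI-expressing lines given 20 µM 5-fluoro-2'-deoxyuridine, and RTX_UGI and RTX_UGI_MMR were given 100 nM raltitrexed, both for 48 h. The 8 drug-treated libraries were therefore all UGI-expressing, whereas the 6 non-treated libraries included 2 without UGI. The paper states that 5-fluoro-2'-deoxyuridine also enters DNA directly in fluorinated form, and that the sensor detects fluorouracil besides uracil. Regions called uracil-enriched after this drug can therefore hold either base, and the region files do not tell them apart. Each UGI line was a sorted population, and nothing in the labels says from which day or batch a replicate came, so the p-values below measure the spread between these libraries only.

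A promoter is the stretch around a transcription start where the transcription machinery assembles. Most human promoters lie in CpG islands, GC-rich stretches that keep the CpG dinucleotide, which is depleted elsewhere in the genome; the others, frequent among tissue-restricted genes, are CpG-poor and often AT-rich. Uracil enters DNA mainly when dUTP is used in place of dTTP during replication, and both drugs favour this by blocking thymidylate synthase, the enzyme that makes dTMP from dUMP. UNG excises such uracil, and UGI prevents that excision. The promoter windows did have the composition of promoters, with a GC content of 54.6% and 91.1 CpG a window, against 45% and 28.6 CpG upstream and 45.3% and 29.7 CpG downstream. They fell into 12041 CpG-rich windows (63.0%), 2886 intermediate windows and 4184 CpG-poor windows, on thresholds given in the methods.

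Several promoters show how different the sequences are that carried the regions. The 250 bases upstream of the start are given 5' to 3' from RefSeq on GRCh38.p14, with each CpG in capitals, for promoters that were covered over the whole window in every library of one class and over no base in another, and whose RefSeq start was the 5' end used here. HMX2, a homeobox gene (chr10:123147886-123148135, plus strand), and EIF5AL1, an intronless copy of the translation factor gene EIF5A (chr10:79512283-79512532, plus strand), were covered in all 8 drug-treated and in no non-treated library. DEFB114, a beta-defensin gene (chr6:49964165-49964414, minus strand), and OR4K1, an olfactory receptor gene (chr14:19930667-19930916, plus strand), were covered in all 6 non-treated and in no drug-treated library. GPRIN2, a gene of neurite outgrowth (chr10:46556659-46556908, minus strand), was covered in the 4 5FdUR libraries only, and WNT8B, a Wnt ligand gene (chr10:100462759-100463008, plus strand), in the 4 RTX libraries only.
HMX2: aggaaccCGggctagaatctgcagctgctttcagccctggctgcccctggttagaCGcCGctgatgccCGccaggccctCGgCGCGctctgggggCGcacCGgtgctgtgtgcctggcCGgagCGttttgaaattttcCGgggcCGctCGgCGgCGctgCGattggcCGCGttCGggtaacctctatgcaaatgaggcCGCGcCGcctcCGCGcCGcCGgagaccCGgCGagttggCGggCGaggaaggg
EIF5AL1: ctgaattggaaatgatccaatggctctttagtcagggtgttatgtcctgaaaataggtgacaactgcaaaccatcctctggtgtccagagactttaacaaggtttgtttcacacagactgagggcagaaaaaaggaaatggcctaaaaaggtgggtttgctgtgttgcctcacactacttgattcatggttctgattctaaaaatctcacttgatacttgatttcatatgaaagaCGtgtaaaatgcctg
DEFB114: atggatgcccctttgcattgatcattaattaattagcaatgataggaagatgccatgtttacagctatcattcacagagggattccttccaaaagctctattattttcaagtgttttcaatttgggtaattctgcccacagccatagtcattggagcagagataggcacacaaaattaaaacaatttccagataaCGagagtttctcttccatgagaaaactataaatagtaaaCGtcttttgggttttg
OR4K1: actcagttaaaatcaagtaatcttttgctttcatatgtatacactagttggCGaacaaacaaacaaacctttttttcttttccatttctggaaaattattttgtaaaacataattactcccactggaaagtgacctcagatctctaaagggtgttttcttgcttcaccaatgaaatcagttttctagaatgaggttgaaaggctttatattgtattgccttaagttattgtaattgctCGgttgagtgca
GPRIN2: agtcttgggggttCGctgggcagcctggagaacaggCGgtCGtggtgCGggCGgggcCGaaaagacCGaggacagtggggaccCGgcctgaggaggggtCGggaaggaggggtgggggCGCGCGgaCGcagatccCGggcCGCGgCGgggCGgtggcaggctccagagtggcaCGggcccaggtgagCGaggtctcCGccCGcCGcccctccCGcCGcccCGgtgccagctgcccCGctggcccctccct
WNT8B: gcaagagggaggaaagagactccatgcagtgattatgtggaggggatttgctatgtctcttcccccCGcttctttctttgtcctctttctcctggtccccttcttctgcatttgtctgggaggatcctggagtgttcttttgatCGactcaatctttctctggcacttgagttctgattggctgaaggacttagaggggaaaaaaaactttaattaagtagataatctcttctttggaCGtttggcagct

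HMX2 and GPRIN2 held 31 and 27 CpG in these bases, WNT8B 3, DEFB114 and OR4K1 2 each, and EIF5AL1 1. The window of 2 kb can differ from these bases: that of EIF5AL1 held 53 CpG and was classed as CpG-rich. The examples from non-treated cells were AT-rich, with a GC content of 36% for DEFB114 and 32.8% for OR4K1. RefSeq gave a start within 1 kb of the 5' end for 12670 of the promoters. Among those, the motif CG occurred at least once in the 250 bases of 97.0% of all promoters, with a median of 18. It occurred in 75.7% of the 437 with sequence that were covered in any non-treated library, with a median of 1. For the 3458 with sequence that were covered in at least 4 drug-treated libraries the median was 17, close to that of all promoters. The motif reads the same on both strands.

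In cells that had received no drug, promoters were nearly empty of uracil-enriched regions. The share of promoter bases inside regions was 1.71% and 1.63% in the WT replicates, 1.49% and 1.37% in NT_UGI, and 1.53% and 1.66% in NT_UGI_MMR. K562 gave 1.61%, inside the range of the HCT116 libraries. The whole autosomes were covered to between 11.3% and 11.6% in the same 6 HCT116 files. Upstream windows were covered to 3.99% ± 0.10 (SD, n = 6) and downstream windows to 4.61% ± 0.18, so the promoters also lay well below the sequence 10 kb away. On the log2 scale the ratio of promoter to mean flank coverage was -1.46 ± 0.12, between -1.68 and -1.34, and all 6 libraries were below 0 (exact sign-flip test, two-sided, p = 0.03125, the smallest that 6 libraries allow).

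After drug treatment the picture turned. The share of promoter bases inside regions was 39.7% and 35.0% in the 5FdUR_UGI replicates, 19.9% and 15.6% in 5FdUR_UGI_MMR, 33.1% and 40.1% in RTX_UGI, and 21.8% and 26.5% in RTX_UGI_MMR. Every drug-treated library lay above every non-treated one, and within each drug the MMR deficient libraries lay above the MMR proficient ones. The share of windows with at least 50% of their bases inside regions rose from 1.49% ± 0.12 (SD, n = 6) to 28.9% ± 9.5 (n = 8), a difference of 27.4 percentage points (exact permutation test over 3003 splits, two-sided, p = 0.000333, adjusted p = 0.000500 over 6 difference tests). The authors set the total length of the regions within each treatment class, so coverage was also divided by that of the autosomes: log2 of this ratio was -2.88 ± 0.11 in non-treated and 0.59 ± 0.50 in drug-treated libraries, a difference of 3.46 (exact permutation test, p = 0.000333, adjusted p = 0.000500). The lowest of the drug-treated libraries, 5FdUR_UGI_MMR replicate 2, had a ratio of -0.22 and was the only one in which promoters were covered less than the autosomes. Its file also held the lowest region log2 value of all, 0.13, which stands for its threshold, and the most regions on the autosomes, 214729. The part of these in its value was not tested.

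**Figure D1:**
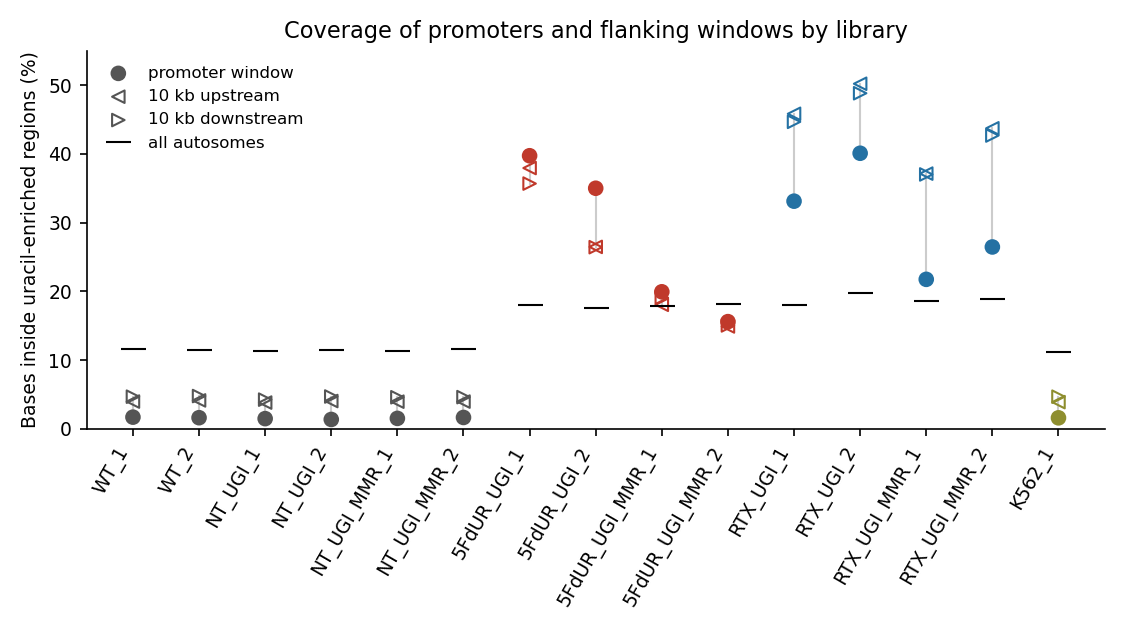
Share of bases (%) inside uracil-enriched regions for each of the 15 libraries on the x axis: filled circles are the promoter windows, open triangles the windows 10 kb upstream and downstream, and dashes all autosomes. In non-treated libraries and K562 promoters lie under their flanks at 1.37% to 1.71%, in 5FdUR libraries they lie at or above them, and in RTX libraries they lie below flanks of 37.0% to 50.2%.

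The neighbourhood of the genes shared in this. Flanking windows were also covered more with drug, to 34.3% ± 13.1 upstream and 33.7% ± 12.3 downstream (SD, n = 8). The promoter over flank log2 ratio nevertheless differed between the classes: it was -0.19 ± 0.43 in drug-treated against -1.46 ± 0.12 in non-treated libraries, a difference of 1.27 (exact permutation test, two-sided, p = 0.000666, adjusted p = 0.000799). Within the drug-treated class the ratio had no common sign, and the 8 libraries together did not differ from 0 in a detectable way (exact sign-flip test, p = 0.242). Against these flanks, the sign depended on the drug.

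With 5FdUR, promoters were covered at least as much as their surroundings. The promoter over flank log2 ratio was 0.11 and 0.40 in 5FdUR_UGI and 0.10 and 0.06 in 5FdUR_UGI_MMR. With RTX, promoters were gaps in densely covered surroundings, with ratios of -0.45 and -0.30 in RTX_UGI and -0.77 and -0.71 in RTX_UGI_MMR. The drugs did not overlap, and the means, 0.17 ± 0.16 and -0.56 ± 0.22 (SD, n = 4 each), differed by 0.73 (exact permutation test over 70 splits, two-sided, p = 0.0286, the smallest they allow; adjusted p = 0.0286). The promoters themselves were covered to a similar extent, 27.6% ± 11.6 with 5FdUR and 30.4% ± 8.0 with RTX, with ranges that overlapped. It was the flanks that stood apart: 14.9% to 37.9% upstream with 5FdUR against 37.1% to 50.2% with RTX, ranges that met only between 5FdUR_UGI replicate 1 and RTX_UGI_MMR replicate 1.

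The course of coverage along the gene gave the same contrast without a choice of flank. In the non-treated libraries coverage was 4.32% at 50 kb upstream, 3.77% at 5 kb upstream, 1.55% at the 5' end and 4.43% at 5 kb downstream. At 3 kb upstream and downstream it was still 2.98% and 2.96%. In RTX libraries the mean fell from 44.4% at 5 kb upstream to 30.3% at the 5' end and was 43.9% at 5 kb downstream, and within 10 kb the lowest bin was that at the 5' end in all 4 libraries. In 5FdUR libraries the mean was 24.8% at 50 kb upstream, 27.6% at the 5' end and 21.9% at 50 kb downstream. This crest was uneven: the 5FdUR_UGI replicate 2 profile rose from 26.4%, its lowest within 10 kb, to 35.1% at the 5' end, whereas 5FdUR_UGI_MMR replicate 2 stayed between 14.9% and 15.8%. The tracks behind the regions were smoothed over 5000 bp by the authors, more than a promoter window, so features narrower than that could not be resolved.

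**Figure D2:**
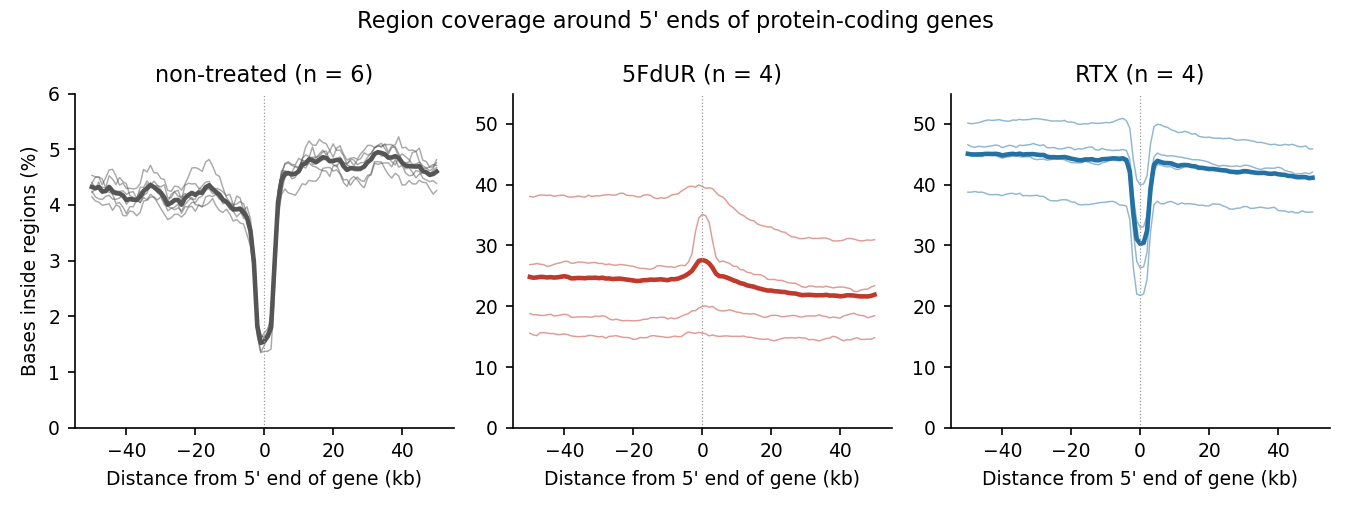
Share of bases (%) inside regions in bins of 1 kb against the distance (kb) from the 5' end of the gene in the direction of transcription, with thin lines for single libraries and thick lines for class means; the y axis of the non-treated panel ends at 6% and that of the drug panels at 55%. Non-treated and RTX libraries have a trough at the 5' end (class means 1.55% and 30.3%), and 5FdUR libraries a low crest (27.6%).

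Away from the promoter the sides of the gene also differed. In non-treated libraries the downstream window, which lay wholly inside the gene for 13963 genes, was covered more than the upstream one, with a log2 ratio of 0.21 ± 0.03 (SD, n = 6). In drug-treated libraries the ratio was -0.01 ± 0.05 (n = 8), lower by 0.22 on the log2 scale (exact permutation test, two-sided, p = 0.000333, adjusted p = 0.000500). For the genes that held the downstream window, non-treated coverage was 4.94% ± 0.25 downstream and 4.26% ± 0.08 upstream. For the 5148 shorter genes it was 3.69% ± 0.22 and 3.26% ± 0.20.

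CpG content divided the promoters sharply without drug and far less with drug. In non-treated libraries CpG-rich promoters were covered to between 0.056% and 0.187% and CpG-poor ones to between 4.73% and 6.01%. In drug-treated libraries the CpG-rich ones were covered to between 13.6% and 41.0% and the CpG-poor ones to between 20.6% and 40.9%. The log2 ratio of CpG-rich to CpG-poor promoters was -5.55 ± 0.56 without drug and -0.36 ± 0.41 with drug, a difference of 5.19 (exact permutation test, two-sided, p = 0.000333, adjusted p = 0.000500). Only the 5FdUR_UGI replicates, with 0.098 and 0.21, had CpG-rich promoters covered more than CpG-poor ones. The RTX_UGI replicates stood at -0.24 and -0.058. The MMR proficient libraries were lower, at -0.78 and -0.60 in 5FdUR_UGI_MMR and -0.85 and -0.65 in RTX_UGI_MMR.

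The trough of the non-treated libraries belonged to the CpG-rich promoters and was nearly missing at the CpG-poor ones. Their promoter over flank log2 ratios were -5.03 ± 0.60 and -0.13 ± 0.11 (SD, n = 6), with intermediate promoters at -1.08 ± 0.12. The RTX libraries had the same order, from -0.81 ± 0.34 for CpG-rich through -0.32 ± 0.13 for intermediate to -0.06 ± 0.02 for CpG-poor promoters (n = 4). In the 5FdUR libraries the 3 classes lay at 0.18 ± 0.23, 0.16 ± 0.14 and 0.12 ± 0.09 (n = 4). The differences between these classes were not tested.

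**Figure D3:**
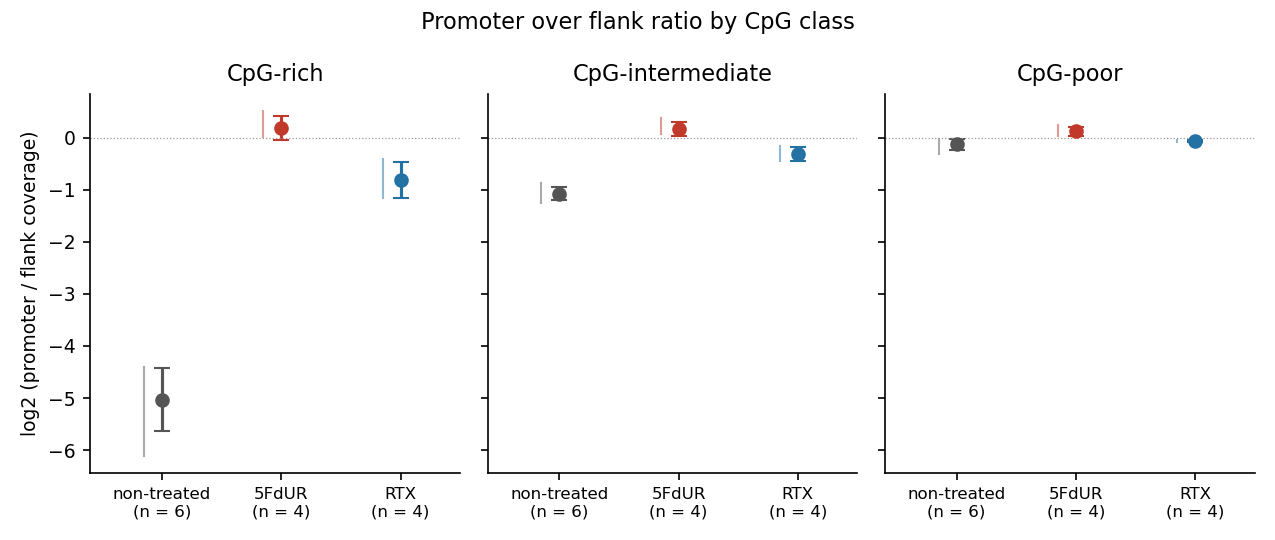
log2 ratio of promoter to mean flank coverage (y axis) in CpG-rich, intermediate and CpG-poor promoters for non-treated, 5FdUR and RTX libraries; points are means, bars SD over libraries, and the thin line beside each point spans the libraries. The ratio runs from -5.03 in CpG-rich to -0.13 in CpG-poor promoters without drug, from -0.81 to -0.06 with RTX, and stays between 0.12 and 0.18 with 5FdUR.

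GC content moved together with these results, and its measure is needed beside them. Autosomal tiles of 2 kb were weighted to the GC content of the promoter windows. Such tiles were covered to 1.46% without drug, close to the promoters, whose log2 ratio to them was 0.09 ± 0.12 (SD, n = 6). With 5FdUR the tiles reached 34.6% and with RTX 32.1%, and the promoters lay below them in all 8 drug-treated libraries, by a log2 ratio of -0.36 ± 0.27 and -0.08 ± 0.07 (n = 4 each). With tiles of the promoters' GC content in place of the flanks, the difference between drug-treated and non-treated libraries turned its direction, from 1.27 to -0.32 (exact permutation test, p = 0.00766). Relative to tiles of their own GC content, promoters were thus on average covered less after drug treatment, not more. The libraries overlapped, however. The ratio ran from -0.14 to 0.21 without drug, from -0.69 to -0.03 with 5FdUR and from -0.19 to -0.04 with RTX.

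By classes of GC content, promoters below 40% GC were covered to 19.2% ± 1.5 without drug, 14.6% ± 3.1 with 5FdUR and 20.4% ± 3.3 with RTX. This was the only class in which non-treated coverage reached that of the drugs. Between 55% and 60% GC, 4307 promoters were covered to 0.03% ± 0.02 without drug, 28.7% ± 14.9 with 5FdUR and 34.3% ± 10.8 with RTX, and the tiles of that class to 0.03%, 41.9% and 38.5%. At low GC the order was opposite, since drug-treated promoters below 40% GC were covered more than tiles of that class, which reached 8.70% with 5FdUR and 10.2% with RTX. The surroundings counted too. Promoters whose surrounding 100 kb had a GC content below 38% were covered to 12.3% ± 0.8 without drug, and those above 50% to 0.000187%. With 5FdUR the promoter over flank log2 ratio fell from 0.61 ± 0.34 in the AT-richest surroundings to -0.16 ± 0.12 in the GC-richest, whereas with RTX it was below 0 in every class, between -0.68 and -0.45.

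**Figure D4:**
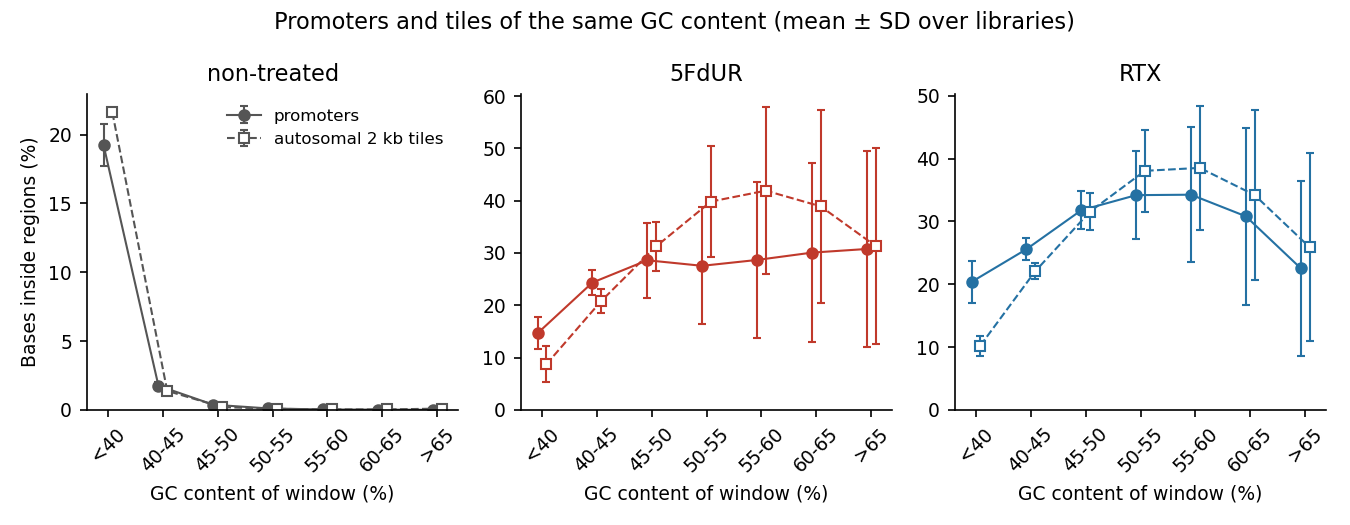
Share of bases (%) inside regions against the GC content (%) of the 2 kb window, for promoters (filled circles) and all autosomal tiles (open squares), as mean ± SD over 6 non-treated, 4 5FdUR and 4 RTX libraries, each panel on its own y scale. Non-treated promoter coverage falls from 19.2% under 40% GC to 1.75% at 40% to 45% and 0.37% at 45% to 50%; with 5FdUR promoters of 55% to 60% GC lie at 28.7% and tiles at 41.9%.

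At single promoters the libraries shared less than these means may convey. Of the 19111 promoters, 4368 (22.9%) were covered over at least 50% of the window in none of the 15 libraries, against 30.0% of the autosomal tiles, and 14302 (74.8%) in at least 1 drug-treated library, against 50.9% of tiles. Those so covered in all 8 drug-treated libraries numbered 71 (0.372%), the same share as among tiles (0.367%). Between replicates, the promoters covered in both made up 0.489 of those covered in either in 5FdUR_UGI, 0.303 in 5FdUR_UGI_MMR, 0.599 in RTX_UGI and 0.431 in RTX_UGI_MMR (Jaccard index), against 0.326 to 0.366 in the non-treated conditions. Of the promoters covered in 5FdUR_UGI replicate 1, 62.7% were also covered in RTX_UGI replicate 2, which covered 40.1% of all promoters. Of those covered in 5FdUR_UGI_MMR replicate 2, 14.3% were also covered in RTX_UGI replicate 1, which covered 33.04% of all. The overlap thus lay above or below the share of all promoters, depending on the pair. All 4 5FdUR libraries covered 838 promoters (4.38%, tiles 2.90%) and all 4 RTX libraries 2035 (10.6%, tiles 9.26%). Those covered in all 4 of 5FdUR and none of RTX numbered 414 (2.17%, tiles 1.2%), and 307 (1.61%, tiles 2.41%) showed the reverse.

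Promoters were next counted whose coverage did not overlap between classes. At 266 promoters (1.39%) each of the 8 drug-treated libraries had more coverage than any non-treated one, against 1.14% of the autosomal tiles, so the share of promoters was near that of any sequence. This count rested on single libraries: it was 712 without 5FdUR_UGI_MMR replicate 2 and 1 when a log2 value of at least 0.34 was required in every library. Of the 266, 91 were CpG-rich and 128 CpG-poor, from classes of 12041 and 4184 promoters. At 93 promoters (0.487%) each drug-treated library had less coverage than any non-treated one, against 4.39% of the tiles, and none of these was CpG-rich. Between the drugs, 790 promoters (4.13%) were covered more in every 5FdUR than in every RTX library, against 2.34% of tiles and 2.35% and 2.54% of upstream and downstream windows. The reverse held for 739 promoters (3.87%), against 4.33% of tiles and 11.0% and 11.9% of upstream and downstream windows. Without 5FdUR_UGI replicate 1 these counts were 1335 and 1795. The first was 1244 without 5FdUR_UGI_MMR replicate 2 and 25 at the common log2 value, and the second was 1502 without RTX_UGI_MMR replicate 1.

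The promoters most firmly covered after both drugs came from varied genes. Wholly covered in all 8 drug-treated libraries and untouched in all 6 non-treated ones were 12 windows (0.0628%), near the 0.0673% of tiles, and the 10 with the highest region log2 value above the threshold of each file are named here. HMX2 led them, with log2 enrichment values of 0.66, 0.62, 0.38 and 0.33 in the 5FdUR libraries and 0.37, 0.49, 0.51 and 0.44 in the RTX libraries, in the order of conditions given above. Its regions were 8000 to 116100 bp long, so the promoter was a small part of each. C10orf105, EIF5AL1 and AFAP1L2, which encodes an actin-associated adaptor, also lay on chromosome 10, apart from HMX2 and from each other by over 1 Mb. The others were NSG1 (endosomal trafficking in neurons), PRND (a prion-like protein), DBH (dopamine beta-hydroxylase, which makes noradrenaline), GSAP (an activator of gamma-secretase), PSMB9 (a catalytic subunit of the immunoproteasome) and FBP2 (the muscle fructose bisphosphatase). Their mean values above the file threshold ran from 0.20 for FBP2 to 0.26 for HMX2. The windows of NSG1, PSMB9, KCNIP3 and UBE2D2 lie at the outermost 5' end of the annotated gene, not at the start RefSeq gives. The same windows of HMX2, C10orf105 and EIF5AL1 headed the promoters covered in most libraries: 15 promoters were wholly covered in 8 libraries and none in more.

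The converse pattern was held by 5 promoters (0.0262%, against 0.604% of tiles), all CpG-poor and with 28.3% to 33.8% GC. They belong to DEFB114, OR4K1, TECRL (a reductase of heart muscle), PMCH (the precursor of melanin-concentrating hormone) and the unnamed ENSG00000284695 at chr4:69846787-69848786. DEFB114 had region log2 values of 0.49 and 0.41 in WT, 0.53 and 0.59 in NT_UGI and 0.66 and 0.48 in NT_UGI_MMR, with 0.55 in K562. The WT values lay in the lower part of this range and overlapped those with UGI. All 5 were also wholly covered in K562. Their regions were short, from 2500 to 17900 bp in HCT116.

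A further 130 promoters (0.680%, against 0.392% of tiles) were wholly covered in the 4 5FdUR libraries and untouched in the other HCT116 ones, and 75 (0.392%, against 0.649% of tiles) in the 4 RTX libraries. GPRIN2 headed the first, with log2 values of 0.60, 0.67, 0.52 and 0.38, followed by KCNIP3 (a calcium sensor that binds potassium channels), FAM20C (a kinase of secreted proteins), C8orf90 and SIRPA (the receptor for CD47). UBE2D2, a ubiquitin-conjugating enzyme, headed the second, with 0.59, 0.65, 0.60 and 0.55, followed by ENSG00000267318, WNT8B, PEF1 (a calcium-binding protein) and IRAG1 (a substrate of cGMP kinase). The 5FdUR set held 75 CpG-rich and 40 CpG-poor promoters, and the RTX set 30 and 29. Of all promoters, 63.0% were CpG-rich and 21.9% CpG-poor. The surrounding 100 kb had a median GC content of 46.4% and 48.7%. These promoters were chosen by their coverage, so the values describe them and test nothing.

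Promoters of genes that handle dUTP, uracil and mismatches had coverage on both sides of the average, with a wide spread between libraries. A list of 24 genes of thymidylate and dUTP metabolism had 19.8% ± 20.2 (SD, n = 4) of its promoters covered over at least 50% of the window with 5FdUR and 34.4% ± 18.8 with RTX, against 27.5% ± 11.8 and 30.2% ± 8.1 of all promoters. TYMS, the target of both drugs, was covered to 77.4%, 52.6%, 17.6% and 100% in the 4 5FdUR libraries and to 0% in all RTX and non-treated libraries. DUT, whose product removes dUTP, was covered to 59.5% and 100% in 5FdUR_UGI and to 0% in every other library. DPYD, which starts the breakdown of fluoropyrimidines, was the only member covered without drug (of all promoters, 3.7% in at least 1 non-treated library). Its window, CpG-poor and in AT-rich surroundings, lies at a distal 5' end 73.9 kb from the start RefSeq gives, which was not read here. It was covered to 100% in WT replicate 1, 80% in NT_UGI_MMR replicate 2 and 100% in K562. It was covered to 55% in 5FdUR_UGI replicate 2 and in RTX_UGI_MMR replicate 1 and to 50% in RTX_UGI replicate 1.

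Among 12 genes of uracil excision repair, UNG itself was wholly covered in the 4 5FdUR libraries and covered to 0%, 44.8%, 64.8% and 89.8% in the RTX libraries. MBD4, SMUG1 and TDG, the genes of other uracil-DNA glycosylases, leaned to RTX. MBD4 was wholly covered in the 4 RTX libraries and in 5FdUR_UGI replicate 1. SMUG1 was covered to at least 90% in the RTX libraries and to 60.4% in 5FdUR_UGI replicate 1. TDG was covered to 100%, 100%, 100% and 0% in the RTX libraries and to 0% in the 5FdUR libraries. None of the 12 was covered over 50% in a non-treated library, against 3.7% of all promoters in at least 1 such library. Of 8 mismatch repair genes 12.5% ± 10.2 were covered with 5FdUR and 25% ± 17.7 with RTX, means below those of all promoters. Of the 8, 3 were covered in no drug-treated library, as were 4809 of all 19111 promoters. PMS2 was covered over 50% of the window in 3 drug-treated libraries and MSH6 in 4, but the window of MSH6 lies 87.6 kb from its RefSeq start. None of the promoters of these 3 lists separated the drug-treated from the non-treated class, which 1.39% of all promoters did upwards and 0.487% downwards.

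Genes of the colon epithelium, the tissue of origin of HCT116, had 43.8% ± 19.7 of their 20 promoters covered with 5FdUR and 28.8% ± 14.4 with RTX. FABP1 (a fatty acid binding protein of enterocytes), TFF3 (trefoil factor of goblet cells), ASCL2 (a factor of intestinal stem cells) and CDX2 (the homeobox factor of intestinal identity) were covered mainly with 5FdUR. FABP1 was covered to 100% in the 4 5FdUR libraries and to 0% in the 4 RTX libraries. CDX2 was covered to 100% in 3 of the 5FdUR libraries and to 0% in 5FdUR_UGI_MMR replicate 2 and in the RTX libraries. CDX1 and CDH17 (liver-intestine cadherin) were instead wholly covered in all 4 RTX libraries and in both 5FdUR_UGI replicates. VIL1 and LGALS4 were covered over 50% of the window in 3 RTX libraries and 1 5FdUR library each, HNF4A in 3 and 2, and MUC2 in 2 and 1. CDH1, E-cadherin, had no covered base in any library. No promoter of the list was covered over 50% in a non-treated library or in K562. Of all promoters 3.7% were so covered in at least 1 non-treated library and 1.55% in K562.

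The families differed in the drug with which more of their promoters were covered, and these differences were not tested. Among 81 genes of cytosolic ribosomal proteins 13.6% ± 10.3 were covered with 5FdUR and 37.4% ± 12.1 with RTX (SD, n = 4), and among 78 of mitochondrial ribosomal proteins 16.4% ± 9.8 and 36.5% ± 11.6. For 38 proteasome subunits the values were 21.1% ± 7.7 and 52.0% ± 16.8, and for 18 erythroid genes 26.4% ± 13.9 and 45.8% ± 21.0. Some erythroid windows are poor stand-ins for the promoters. Those of HBG2 and HBE1, at 5505605 and 5505652 on chromosome 11, overlap and lie away from the other globin windows there. That of HBD lies 9.17 kb from its RefSeq start. The 35 subunits of respiratory complex I, at 23.6% ± 7.9 and 27.9% ± 8.5, were close to all promoters. PSMB8 and PSMB9, neighbours in the major histocompatibility complex whose windows overlap, were wholly covered in all 8 drug-treated libraries. In several other families the mean was higher with 5FdUR. Of the 39 HOX genes 60.3% ± 29.5 were covered with 5FdUR and 35.9% ± 13.9 with RTX. Each was covered in at least 1 drug-treated library, as were 74.8% of all promoters. Of 43 voltage-gated potassium channels 42.4% ± 14.9 and 19.8% ± 4.5 were covered, of 69 replication-dependent histone genes 38.8% ± 17.7 and 12.3% ± 2.5, and of 94 keratin-associated proteins 30.9% ± 11.8 and 10.6% ± 4.3. The libraries of the 2 drugs did not overlap for the potassium channels or the keratin-associated proteins. Members of clustered families are not independent: the HOX genes lie in 5, the histone genes in 6 and the keratin-associated proteins in 7 intervals of 1 Mb, where 1 region can cover several promoters.

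Some families had many promoters covered without drug. Of 399 olfactory receptor promoters, of which 0.752% were CpG-rich, 17.4% ± 1.3 (SD, n = 6) were covered in non-treated libraries, 9.77% ± 2.72 with 5FdUR and 8.58% ± 1.39 with RTX. In 29 of them each drug-treated library lay below all non-treated ones, and in 2 each lay above. Of all 19111 promoters 93 lay below and 266 above in this way, and of the autosomal tiles 4.39% and 1.14%. K562 covered 20.1% of the olfactory receptor promoters. Bitter taste receptors (24) were covered to 20.1% ± 9.7 and beta-defensins (39) to 11.1% ± 4.5 without drug, against 1.49% of all promoters. With 5FdUR and RTX the bitter taste receptors stood at 10.4% ± 5.4 and 15.6% ± 4.0. The beta-defensins stood at 13.5% ± 4.4 and 16.7% ± 4.4, means that were not below that without drug. With surroundings of similar GC content, 0.629% of the 53 clustered protocadherins were covered without drug (median regional GC 41.3%, beta-defensins 41.8%). The promoters themselves differed, since 47.2% of the protocadherin and 0% of the beta-defensin promoters were CpG-rich. The protocadherins also lie in only 2 intervals of 1 Mb. The 17 type I interferon genes, in 2 intervals of 1 Mb, were unlike both: 31.4% ± 8.9 were covered without drug, 17.6% ± 4.8 with 5FdUR and 82.4% ± 10.7 with RTX, and 0% in K562. CDH19, a cadherin of Schwann cell precursors, was covered to at least 98.1% in the 6 non-treated libraries and to 0% in the drug-treated ones, and SLC4A4, a bicarbonate transporter, to between 45% and 100% without drug and to 0% with drug.

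**Figure D5:**
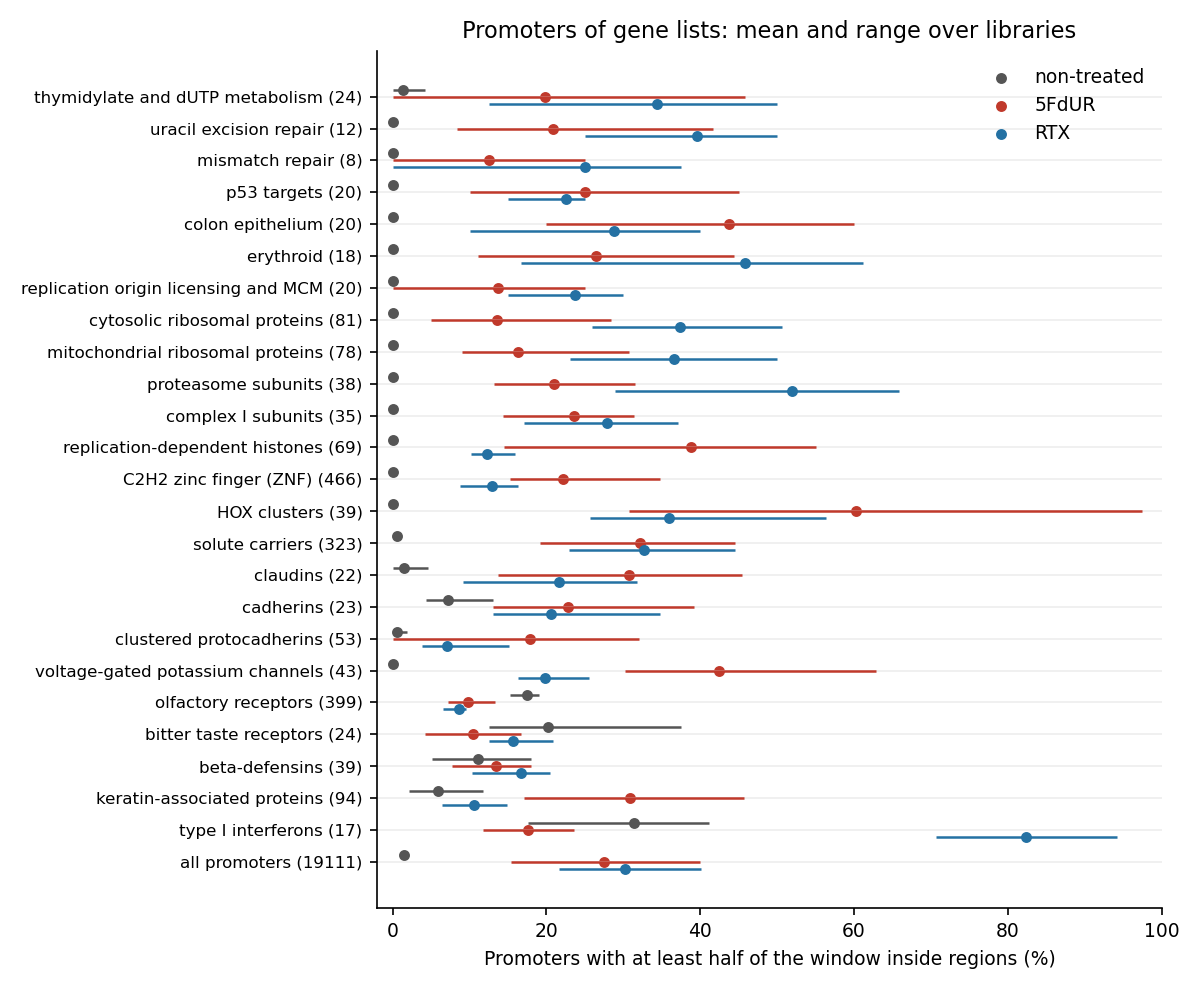
Share (%) of the promoters of each gene list (number of promoters in parentheses) with at least 50% of the window inside regions; points are means and lines the range over 6 non-treated, 4 5FdUR and 4 RTX libraries. All promoters are in the last row, at 1.49%, 27.5% and 30.2%; olfactory receptors lie at 17.4% without drug, HOX clusters at 60.3% with 5FdUR and type I interferons at 82.4% with RTX.

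Whether a promoter followed its flanks was also read promoter by promoter. Where both flanks were covered over 50%, the promoter between them was not covered in 83.4% ± 4.7 of cases without drug (138.7 promoters a library on average), in 27.6% ± 14.8 with 5FdUR and in 36.8% ± 12.5 with RTX. Tiles whose neighbours at 10 kb were both covered gave 60.2%, 29.9% and 18.1%. Gaps were thus more frequent at promoters than at tiles without drug and with RTX, and close to the tiles with 5FdUR. Conversely, a promoter was covered between uncovered flanks in 11.1% ± 4.0 of cases with 5FdUR and in 4.56% ± 0.76 with RTX, against 6.69% and 3.49% of tiles. Without drug the order was opposite, at 0.873% ± 0.082 of promoters and 7.21% ± 0.28 of tiles. Region log2 values did not set promoters apart: the regions over a 5' end exceeded the file threshold by 0.145 with 5FdUR and 0.191 with RTX on average, and all region bases by 0.145 and 0.175.

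Of all promoter windows, 3898 overlapped that of another gene. Among CpG-rich promoters, the 1520 with another start on the opposite strand within 1 kb upstream were covered to 16.9% ± 9.5 with 5FdUR and the 10521 others to 28.4% ± 14.5. With RTX the values were 25.7% ± 8.4 and 28.0% ± 9.8 (SD, n = 4). These differences were not tested. Promoter coverage also varied by chromosome. With RTX it was highest on chromosome 17, at 40.9%, and lowest on chromosome 18, at 13.1%, whereas with 5FdUR chromosome 18 stood at 32.5% and the lowest was chromosome 19, at 18.4%. Without drug chromosome 4 was highest, at 4.49%.

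The repair background went with promoter coverage in both drugs, although 2 against 2 libraries allow no p below 0.333 and none is given. With 5FdUR, 3905 promoters (20.4%) were covered more in both MMR deficient than in both MMR proficient libraries, against 7.07% of tiles, and 706 (3.69%) the other way, against 6.62%. With RTX the counts were 2804 (14.7%), against 3.55% of tiles, and 525 (2.75%), against 3.35%. The flanks shared this: with 5FdUR 16.9% of the upstream and 15.6% of the downstream windows were higher in the MMR deficient libraries, and with RTX 11.0% and 10.7%. Among CpG-rich promoters the shares were 22.6% and 16.6%, and among CpG-poor ones 15.6% and 9.49%. The MMR lines differ from their parent by a whole chromosome, and the lowest region log2 values differed between libraries, at 0.20 and 0.13 in 5FdUR_UGI_MMR and 0.25 and 0.14 in 5FdUR_UGI. The part of either in these counts was not tested.

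Non-treated K562 and HCT116 shared many of the few promoters they covered. K562 covered 296 promoters over at least 50% of the window, and the HCT116 libraries 249 to 314. Between 41.2% and 51.0% of the K562 promoters were covered in a given non-treated HCT116 library, and 83.1% in any of the 6, which together covered 710. Replicates of 1 HCT116 condition shared 46.8% to 56.5% of their covered promoters, a range that overlapped the one across cell lines. Of the K562 promoters 35.1% were covered in some drug-treated library, against 74.8% of all promoters.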

How the data were processed

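DNA of 32 samples was studied by U-DNA-Seq, and the region files of 15 replicate libraries and 7 merged conditions were used. Input samples entered only through the ratios of pull-down over input, and the mock samples were not used. The authors aligned the reads to GRCh38, and the submitters' processing notes name BWA 0.7.17-r1194, SAMtools 1.9-50, Picard and deepTools 3.2.1. From the alignments they made log2 tracks of pull-down over input coverage, smoothed over 5000 bp in 100 bp bins, and kept as regions the bins above a log2 threshold chosen for each library so that total region length was alike within treated and within non-treated samples. The deposited files hold each region with its mean log2 value. They hold no read counts, so read depth could not be taken from them and no counting interval is given, and total coverage is a choice, not a measurement.

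Coverage was the share of known bases inside regions, computed in Python 3.11.15 with numpy 2.4.6 and pandas 2.3.3 (figures: matplotlib 3.10.9) over the windows of GENCODE release 44 genes. CpG-rich windows had a stretch of 500 bp with at least 55% GC and an observed to expected CpG ratio of at least 0.75, and CpG-poor ones had none reaching 0.48. Class means were compared by exact permutation of libraries, with K562 left out and Benjamini-Hochberg adjustment over 6 difference tests; single classes were tested by exact sign flips. Counts of promoters gave no p. Scripts were tested on simulated data. The members, gene lists and named genes were chosen with earlier results of these data known. Promoters wholly covered in 1 class and bare in the other were ranked by region log2 above the threshold of the file, at most 1 gene per 1 Mb: 10 for drug against none and the reverse, 5 for each drug alone, 3 for most libraries; members of the repair, thymidylate and colon lists and up to 3 promoters a list were also named. RefSeq sequences matched 14616 of the promoters by symbol, chromosome and strand. Alternatives changed window width, flank distance, region filters, libraries, transcript starts and the reference.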

Additional observations from a re-analysis of the deposited data

Results flagged for a closer look

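The promoter over flank log2 ratio differed between the drugs by 0.73 (5FdUR minus RTX, exact permutation test, two-sided, p = 0.0286), with all 4 5FdUR libraries above 0 and all 4 RTX libraries below it. Against tiles of the promoters' GC content every library of both drugs lay below 0, at -0.36 ± 0.27 with 5FdUR and -0.08 ± 0.07 with RTX. That difference between the drugs was not tested. The sensor also detects fluorouracil, and its part in the 5FdUR values was not tested. Within 5FdUR, replicate 2 of 5FdUR_UGI stood apart from the other 3 libraries with a promoter over flank log2 ratio of 0.40, the next being 0.11. Within RTX, replicate 1 of RTX_UGI_MMR stood apart in the downstream over upstream log2 ratio, at -0.0046 against -0.035 in the nearest library. Such gaps were looked for in 36 groups of libraries, over 9 measures, and 2 were found; chance alone gives about 1 in 20 groups.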

How the results depend on the processing

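Of 115 values of tests under alternative settings, 106 kept their direction and their side of 0.05, as did 86 of 92 obtained by leaving out 1 library. Some of the 115 could not move, so the first count overstates the agreement. Flank distance does not enter the autosome ratio, the share of windows or the CpG-rich over CpG-poor ratio. Keeping UGI-expressing libraries only removes no drug-treated library, and leaving out 5FdUR_UGI_MMR removes no non-treated one. The exception in direction was the promoter over flank log2 ratio, drug minus no drug, at -0.32 against tiles of the promoters' GC content. No other test was repeated against that reference. Against it the mean ratio was 0.09 in non-treated, -0.36 in 5FdUR and -0.08 in RTX libraries, so the means of the drugs stood in the reverse order. The other values of the difference ran from 0.90 (RTX libraries only) to 1.63 (5FdUR libraries only), both chosen after seeing the data. With the 7 merged files it was 1.21 and missed 0.05 (exact permutation p = 0.0571). The non-treated promoter over flank ratio was -1.43 with merged files, -1.48 in MMR deficient libraries and -1.49 in UGI-expressing ones, with too few libraries to pass, and -1.49 to -1.42 without single libraries, with an exact sign-flip p = 0.0625, the smallest 5 libraries allow. 5FdUR minus RTX was 0.78 with merged files, 0.63 in MMR deficient libraries and 0.81 without 5FdUR_UGI_MMR, with too few splits to pass. With a replicate block it was 0.73 (exact permutation p = 0.0556, the smallest possible), and the block changed no other call among the 6 differences. Replicate numbers did not pair the samples: deviations of same-numbered libraries correlated between -0.066 and 0.027 over 21 pairs of conditions.

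Counts of promoters were far less stable, with 18 of 34 within 1.5 times. Promoters covered more in every drug-treated library numbered 162 and 561 with 500 bp and 2 kb on each side, 1 at a common log2 value of 0.34, 54 with regions of at least 5 kb, 864 with merged files, 3114 in MMR deficient libraries, 1836 without 5FdUR_UGI_MMR and 12 when the whole window was required; leaving out 1 library gave 266 to 712. Chosen after seeing the data, 5FdUR libraries only gave 1568 and RTX libraries only 3364. Promoters covered less numbered 60, 21, 207 and 5 at the common value, with long regions, with merged files and for whole windows, and 93 to 110 without 1 library. 5FdUR over RTX gave 25 and 362 at the common value and with long regions, and 820 to 1335 without 1 library; RTX over 5FdUR gave 750 to 1795. Shares of tiles are given above for the main setting and for whole windows only. The other counts have no such share beside them, so they show nothing particular to promoters. The causes were not tested.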
